A study of Mus musculus with 2 samples.

Results

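Carbonic anhydrases were followed in the colon of EP4 cKO mice as 10 genes given by name: Car1, Car2, Car3, Car4, Car5b, Car7, Car8, Car9, Car12 and Car13. All probes whose RefSeq accession maps to these symbols were taken. Of the 10 genes, 9 had at least 1 probe and Car5b had none, which gave 12 probes among those of 22909 genes named on the arrays. 6 members were represented by 1 probe and 3 members, Car1, Car8 and Car9, by 2 probes.

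Carbonic anhydrases are zinc enzymes that interconvert carbon dioxide and water with bicarbonate and a proton. In the colon they feed the exchangers through which surface cells take up sodium and chloride in return for protons and bicarbonate, and so they are typical of the differentiated upper crypt. Family members differ mainly in where they act: in the cytosol, in mitochondria, or at the cell surface, and a few related proteins have lost the catalytic site.

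Both groups were C57BL/6 mice of 8 weeks, and both carried Villin-Cre, a transgene that makes Cre recombinase in the intestinal epithelium. Controls carried this transgene only (Villin-Cre), whereas EP4 cKO mice were Villin-Cre; EP4flox/flox, so that Ptger4, which encodes the prostaglandin receptor EP4, is cut by Cre in epithelial cells and kept intact in all others. RNA from 3 pools of colon was combined for each genotype and hybridized, labelled with Cy3, to 1 array per genotype. With 1 array per genotype there is no replicate check and no p-value, and all values describe these arrays only.

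Each value is a normalized signal: the scanner's processed signal multiplied so that the trimmed mean of the array, without 2% of probes at each end, is 2500. Differences are log2 ratios of EP4 cKO over Villin-Cre, and a difference past 2-fold is counted. A probe well above background on 1 array only gives a lower limit of the fold, in which its dim side is held at no less than the floor of that array (125 on Villin-Cre and 57.8 on EP4 cKO), the lowest signal well above background. Signals of different probes are not compared with each other, and sums over a list are given only to set the arrays side by side. The scanner software gives every log2 ratio of a member an error of at least 0.20, and among 260 probes spotted 10 times with a signal of 10000 and above the median SD of the log2 ratio was 0.033. Neither includes the spread between mice.

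The targeted gene did not separate the arrays, which are named here by their labels, and every direction given rests on those labels. A probe of Ptger4 read 6227 in Villin-Cre and 5661 in EP4 cKO, and its other probe 393 and 592; whether these probes lie in the deleted part is not given in the sources used here. All 10 markers of colonic epithelium were well above background on both arrays, with a median log2 ratio of 0.08. Markers of other cells fitted the label of whole colon less well and differed between the arrays. Only 1 of 7 endothelial markers was well above background on either array. Of 8 smooth muscle markers, 5 were so on Villin-Cre and 6 on EP4 cKO, among them Acta2 (18006 and 27719 by its brightest probe), while the smooth muscle myosin Myh11 was so on neither. A dimmer Acta2 probe, also well above background on both arrays, went the other way (451 and 302). With probes averaged the log2 ratio of Acta2 was 0.02. The normalized signals of fibroblast markers added up to 13059 in Villin-Cre but 317 in EP4 cKO, and those of red blood cell markers were 239543 and 8801. Fewer cells of a type and less RNA per cell cannot be told apart in such tissue RNA.

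Among the carbonic anhydrases, Car13 was 2.79-fold higher in EP4 cKO, Car9 was nearly 2-fold higher, and the abundant signals of Car1, Car2, Car4 and Car7 differed by less than 1.5-fold. Car1 alone among the 6 members measured on both arrays was lower, under all scalings compared but that to control spots described last. Of the 9 members with a value, 2 were more than 2-fold higher (Car13, and Car8 by its lower limit) and 0 were lower, while 4.86% of 14669 genes with a value were more than 2-fold higher and 7.87% lower. Car3, Car8 and Car12 were well above background on EP4 cKO only, so they could not count as lower. Of the 6 members measured on both arrays, 1 was higher and 0 were lower, beside 4.03% and 6.23% of genes measured so. Taking Car3, Car8 and Car12 at their lower limits (Car3 at 0), the median log2 ratio of the 9 members was 0.32, against -0.10 for all genes. With loess the median was 0.67 against 0.04, but there the limit of the dim Car3 was itself 0.67 and set this median. For the 6 measured on both arrays the median was 0.33, against -0.15 for the 12816 genes measured so. With loess the middle values of these 6 were 0.38 (Car7) and 0.43 (Car2).

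**Figure D1:**
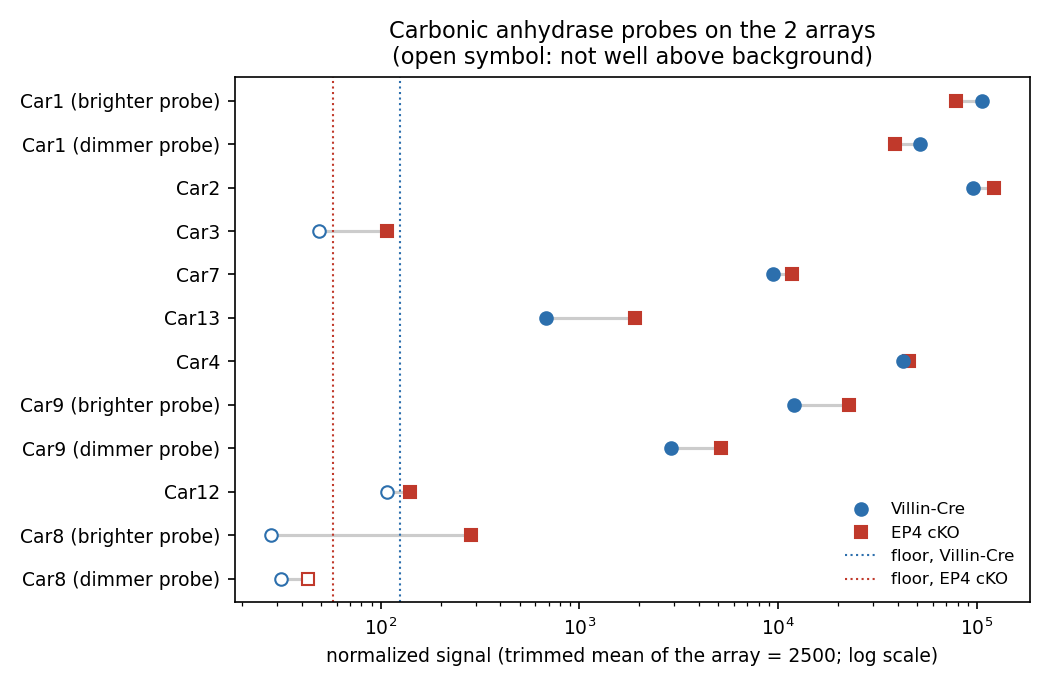
Normalized signal (log scale) of the 12 carbonic anhydrase probes in Villin-Cre (circles) and EP4 cKO (squares), with grey lines joining the 2 values of a probe; open symbols were not well above background and dotted lines mark the floors, 125 and 57.8. Car1 is the only gene whose squares lie to the left of its circles, the gap is widest among filled pairs for Car13 (679 and 1894), and Car3, Car12 and Car8 were measured on the EP4 cKO array only.

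Car1, Car2, Car3, Car7 and Car13 are the cytosolic members. Car1 and Car2 are the abundant enzymes of colonic surface cells and of red blood cells, Car2 being the faster catalyst. The brighter Car1 probe read 105597 on Villin-Cre and 78868 on EP4 cKO, and the dimmer probe 51603 and 38554. Both were lower on the EP4 cKO array by the same amount, a log2 ratio of -0.42 (scanner error 0.20), or 1.34-fold. Of the genes measured on both arrays, 27.7% had a lower ratio. Car2 went the other way, from 95253 on Villin-Cre to 121431 on EP4 cKO, which is 1.27-fold and a log2 ratio of 0.35; 15.9% of genes had a higher ratio. The Car2 ratio thus stood 0.77 above that of Car1 on the log2 scale (scanner error of this gap 0.29), and it lay between 0.77 and 0.87 under the 9 ways of processing compared, some of which scale whole arrays and leave such gaps as they are.

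Car13, a cytosolic enzyme found in many tissues including the gut, had the largest difference of the members measured on both arrays. Its probe read 679 on Villin-Cre and 1894 on EP4 cKO, 2.79-fold higher, with a log2 ratio of 1.48 and a scanner error of 0.21. Only 1.93% of genes measured on both arrays had a higher ratio. The gap to Car1 was 1.90 on the log2 scale, or 3.74-fold, and the gap to Car2 was 1.13, or 2.19-fold. Car13, Car1, Car3 and Car2 follow each other in this order on mouse chromosome 3 (RefSeq genes of GRCm38.p6) with 0 protein-coding genes between neighbours. Genes of this cluster therefore differed in direction as well as in size: Car13 and Car2 higher, Car1 lower, and Car3 without a measurable fold.

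Car7, a cytosolic enzyme best known from neurons, read 9413 on Villin-Cre and 11747 on EP4 cKO, a log2 ratio of 0.32 that is close to that of Car2. Car3, the low-activity form of fat and skeletal muscle, was dim. It read 49.0 on Villin-Cre, not well above background, and 107 on EP4 cKO. As 107 is below the floor of the Villin-Cre array, no fold can be given for Car3.

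Markers of other cells that make these enzymes were read beside them. Of 8 red blood cell markers, 6 had a probe and 4 a value, and all 4 were lower on EP4 cKO: Hba-a1, a globin, read 112282 and 4216 (26.6-fold lower), Hbb-bt 19535 and 608 (32.1-fold lower), Hba-a2 107146 and 3936, and Alas2, the heme synthesis enzyme of red cells, was at least 8.75-fold lower. The limit for Alas2 was -3.13 on the log2 scale and became -1.29 after normexp with quantile normalization. The part of red cells in the values of Car1 and Car2 was not tested. Beside Car3, skeletal muscle markers had a median log2 ratio of 0.02 and summed to 703 on Villin-Cre and 1231 on EP4 cKO. Acta1, a muscle actin, read 235 and 921, whereas Mb went the other way (196 and 16.4, at least 3.39-fold lower). Ckm and Myh1 were well above background on neither array. The 8 fat cell markers summed to 1519 and 5483, and the 3 with a value had a median of -0.04, which is that of Lep. Adipoq, Plin1, Cfd, Fabp4 and Retn were well above background on neither array, while Cidec, a lipid droplet protein, was at least 36.6-fold higher (107 and 4593) and Lpl, lipoprotein lipase, at least 7.55-fold lower. On the log2 scale normexp with quantile normalization brought these limits from 5.20 to 4.08 for Cidec and from -2.92 to -1.47 for Lpl.

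Car4, Car9 and Car12 act at the cell surface. Car4, held by a lipid anchor on the luminal face of colonocytes, was nearly equal on the arrays, with 42723 on Villin-Cre and 45511 on EP4 cKO. Its log2 ratio of 0.09 was smaller than the scanner error of 0.20. Car9, a transmembrane enzyme of gut epithelium that low oxygen induces in many cells, was higher on EP4 cKO by both probes. The brighter probe read 11946 and 22802, 1.91-fold and a log2 ratio of 0.93, and the dimmer probe 2880 and 5173, 1.80-fold and 0.84. Of the genes measured on both arrays, 4.65% had a higher ratio than the brighter probe. Car9 stood 0.84 above Car4 on the log2 scale, or 1.79-fold, a gap that ranged from 0.77 to 0.84 over the 9 ways of processing. Car12, a transmembrane enzyme also induced by low oxygen in some tumours, read 107 on Villin-Cre, not well above background, and 140 on EP4 cKO, which makes it at least 1.12-fold higher.

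The 250 bases before the start of Car9 and Car12 are shown because both genes are described as targets of hypoxia-inducible factor (HIF), and Car9 was higher by both of its probes. They come from RefSeq (GRCm38.p6) and are the plus strand, Car9 at chr4:43506776-43507025 and Car12 at chr9:66713436-66713685. Capitals mark the core ACGTG of the HIF-bound element, which here lies on the minus strand and reads CACGT.
Car9: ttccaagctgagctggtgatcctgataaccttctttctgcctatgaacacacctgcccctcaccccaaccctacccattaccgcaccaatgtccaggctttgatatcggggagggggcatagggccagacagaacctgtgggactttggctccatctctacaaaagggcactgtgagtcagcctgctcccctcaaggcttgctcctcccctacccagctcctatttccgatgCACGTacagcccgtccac
Car12: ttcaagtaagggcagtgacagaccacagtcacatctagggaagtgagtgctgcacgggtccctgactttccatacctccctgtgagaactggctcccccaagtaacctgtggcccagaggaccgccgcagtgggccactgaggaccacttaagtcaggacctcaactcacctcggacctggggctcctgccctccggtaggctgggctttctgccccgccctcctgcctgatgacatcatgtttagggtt
The Car9 core lies 18 bases before the start, and Car12 has none.

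Promoter windows, from 250 bases before to 50 bases after the start, were held for 5 of the 10 members (Car4, Car5b, Car7, Car9 and Car12). Besides Car9, only Car4 had ACGTG, also on the minus strand and just after the start, and 19.6% of 32851 mouse promoters of this length hold it on either strand. The other core searched, GCGTG, occurred in Car7 and Car5b, and 32.4% of promoters hold it. The interferon-stimulated response element and the gamma-activated site TTCNNNGAA (in 3.44% and 8.30% of promoters, on either strand) were in none of the members' windows. Car9 and Car4 hold the core at different places in these windows, and their log2 ratios were 0.93 and 0.09. Any part of the core in these ratios was not tested.

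Car8 lacks a zinc-binding residue of the active site, has no enzymatic activity and is known as a binding partner of the IP3 receptor in Purkinje cells. Its brighter probe read 28.1 on Villin-Cre, not well above background, and 285 on EP4 cKO, so that it was at least 2.27-fold higher (log2 ratio at least 1.19). Its dimmer probe read 31.3 and 43.1 and was well above background on neither array. The value of Car8 therefore rests on 1 probe on 1 array, and after normexp background correction with quantile normalization its limit was 0.90, within 2-fold. Car5b, a mitochondrial enzyme, has no value.

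**Figure D2:**
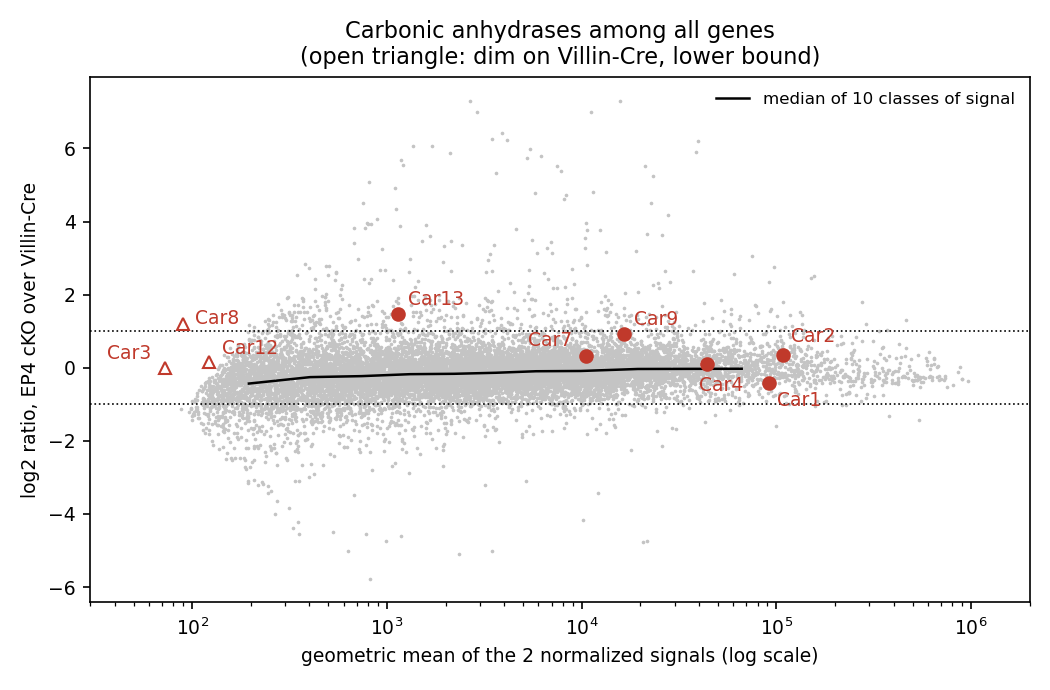
Log2 ratio of EP4 cKO over Villin-Cre against the geometric mean of both normalized signals (log scale) for the 12816 genes measured on both arrays (grey points), with the running median over 10 equal classes of signal (black line, from -0.43 for the dimmest to -0.03 for the brightest), the members in red and lower limits as open triangles; dotted lines mark 2-fold. Car13 (1.48) lies above the upper line and Car9 (0.93) just under it, Car1 (-0.42) lies below the median line, and Car4 (0.09) close to it.

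The remaining 6 carbonic anhydrase genes were dim or lower. Car5a, the mitochondrial enzyme of liver, Car6, which is secreted in saliva, and Car10, a protein without activity, were well above background on neither array. Car11, also inactive, was at least 1.11-fold higher (106 and 139). Car15, a lipid-anchored surface enzyme, read 1103 on Villin-Cre and 477 on EP4 cKO, 2.31-fold lower. Car14, a transmembrane enzyme, was lower by both probes. Its brighter probe read 208 and 102, 2.04-fold lower, and the dimmer probe, which read 16.6 and was not well above background on EP4 cKO, was at least 3.46-fold lower. These calls depended on the processing. By its brighter probe Car14 was at a log2 ratio of -0.37 after normexp with quantile normalization, -0.44 with loess, -0.87 with the 75th percentile and -0.91 with scaling to all spots, while the limit for the dimmer probe stayed past 2-fold with loess (-1.36) and the 75th percentile (-1.63) but not after normexp with quantile normalization (-0.54). Car15 stayed past 2-fold with the 75th percentile (-1.05) and all spots (-1.09), but was at -0.74 after normexp with quantile normalization, -0.99 with loess and -0.17 when scaled to the E1A control spots, which put Car14 at 0.0078.

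Carbonic anhydrases work with transporters of bicarbonate, chloride and protons, and these did not move together. Of 26 such genes 19 had a value, with a median log2 ratio of -0.13 beside -0.10 for all genes. Of the 19, 4 lay past 2-fold on the higher side and 1 on the lower, beside 4.86% and 7.87% of all genes. The count higher was 5 with the 75th percentile (6.39% of all genes) or all spots (5.97%). It was 3 after normexp with quantile normalization (4.19%) and 8 with the E1A control spots (39.1%). Slc9a3 (NHE3), the luminal sodium-proton exchanger of absorptive cells, read 1661 on Villin-Cre and 18703 on EP4 cKO, 11.3-fold higher, although its other probe read 27.6 and 52.6 and was well above background on neither array. Slc16a3, a lactate and proton exporter, was 3.15-fold higher (1833 and 5778), and Atp12a, the colonic proton-potassium pump, 2.78-fold higher (8990 and 24983). Slc26a4 (pendrin), an anion exchanger, read 124 on Villin-Cre, not well above background, and 352 on EP4 cKO and was at least 2.81-fold higher, while normexp and quantile normalization together put its limit at 0.93 on the log2 scale.

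The gene that stood against these was Slc4a4, the basolateral sodium-bicarbonate cotransporter. It read 25272 on Villin-Cre and 8480 on EP4 cKO, 2.98-fold lower, and its other probe was also lower (4628 and 1945, log2 ratio -1.25). It was within 2-fold when scaled to the E1A control spots (-0.54). Slc26a3, the luminal chloride-bicarbonate exchanger of salt uptake, read 6210 and 8262, a log2 ratio of 0.41 that is near that of Car2. Cftr, the chloride channel of crypt cells, was at -0.66 by its brighter probe and at -1.63 by the dimmer (241 and 77.5), and with probes averaged it was past 2-fold lower as well (-1.15). Best2, a bicarbonate channel of goblet cells, was at -0.19, and Slc9a2, another luminal sodium-proton exchanger, at 0.41. 7 transporters, among them the red cell anion exchanger Slc4a1, were well above background on neither array.

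Genes that low oxygen induces were set beside Car9. All 15 had a value, 4 were more than 2-fold higher and 0 were lower, against 4.86% and 7.87% of all genes. The count higher was 6 with the 75th percentile (6.39% of all genes) or all spots (5.97%), 7 with loess (7.61%) and 13 with the E1A control spots (39.1%). It was 5 after normexp with quantile normalization (4.19%), 10 at a threshold of 1.5-fold (9.84%) and 3 at 3-fold (2.21%). The median log2 ratio of the 15 genes was 0.80 (0.62 with probes averaged), and 13 were above 0. Egln3, an oxygen-sensing prolyl hydroxylase, read 3366 on Villin-Cre and 15211 on EP4 cKO (4.52-fold), Bnip3, a mitophagy receptor, 7204 and 26059 (3.62-fold), and Pfkfb3, a regulator of glycolysis, 263 and 937 (3.57-fold). The glucose transporter Slc2a1 was 2.61-fold higher (14842 and 38722). Ndrg1 (-0.26) and the histone demethylase Kdm3a (-0.20) went against the rest and were chosen after their values were seen. Car9, with 0.93, lay close to the median of these genes. Any part of oxygen in the Car9 value was not tested.

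**Figure D3:**
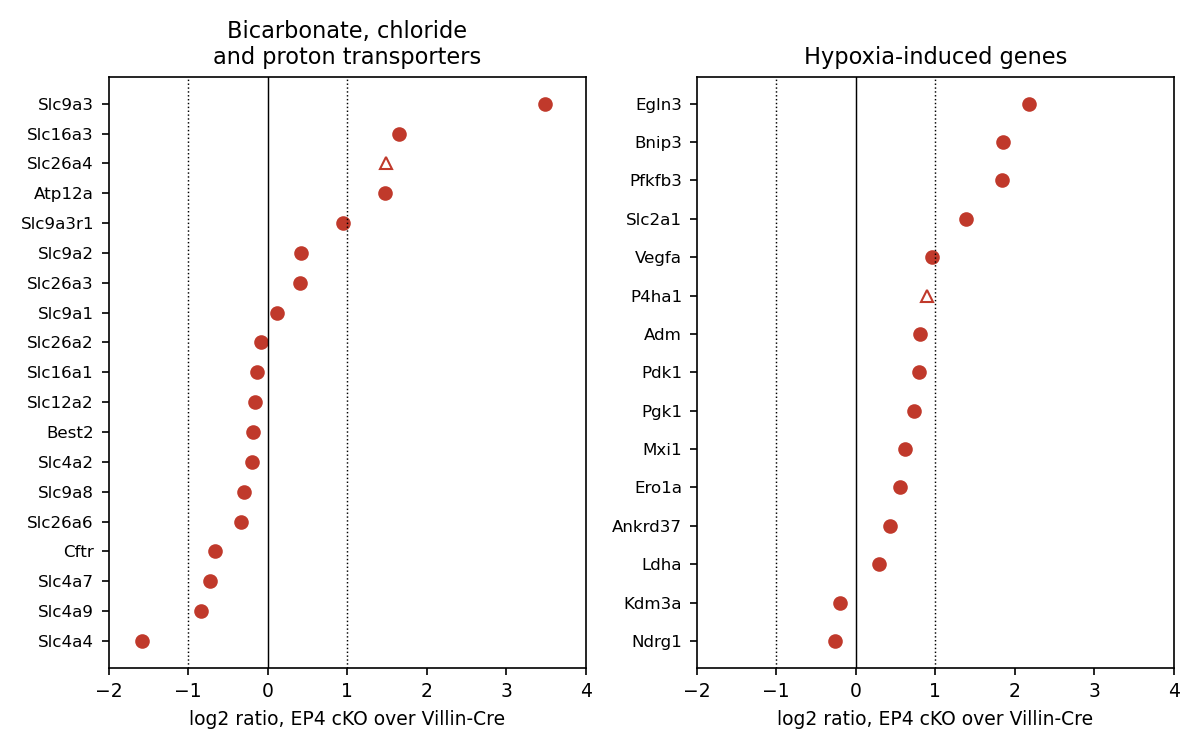
Log2 ratio of EP4 cKO over Villin-Cre for the 19 transporters (left) and the 15 hypoxia-induced genes (right) with a value, in order of their ratio; filled points were measured on both arrays, open triangles are lower limits and dotted lines mark 2-fold. The transporters spread to both sides of 0, from Slc4a4 (-1.58) to Slc9a3 (3.49), while 13 of the 15 hypoxia-induced genes lie above 0.

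Markers of the surface of the colonic crypt, where Car1, Car2 and Car4 are made, also differed in direction among themselves. Of 9 such genes, 4 lay past 2-fold on the higher side and 1 on the lower, beside 4.86% and 7.87% of all genes. The median log2 ratio of the 9 was 0.46, against -0.10 for all genes. Emp1, a membrane protein, read 4775 on Villin-Cre and 108405 on EP4 cKO, Tmigd1, an adhesion protein, 205 and 3137, and the keratin gene Krt20 146575 and 510711. Aqp8, a water channel of colonocytes, read 236302 and 473610. Slc37a2, a sugar phosphate exchanger, was lower (log2 ratio -1.68). The 8 crypt base markers were below 0, with a median of -0.76 against -0.10 for all genes. Lgr5 (1541 and 723) and Rgmb (216 and 99.6), 2 of the 8, were more than 2-fold lower, beside 7.87% of all genes. With the 75th percentile both were within 2-fold (-0.94 and -0.96) and Axin2 and Ephb2 turned above 0 (0.09 and 0.06); normexp with quantile normalization left Lgr5 at -0.76 and Rgmb at -0.11, and loess at -0.91 and -0.53. Guca2a, a peptide hormone precursor (-0.75), and Lypd8, an antibacterial surface protein (-0.35), were also below 0. Of the 9 surface markers, 5 lay above 0, as did Car2 and Car13, and 4 below it, as did Car1. Guca2b, 1 of the 4, was at -0.05, within its scanner error of 0.20. It turned above 0 with the 75th percentile (0.11), all spots (0.07), loess (0.03) and normexp with quantile normalization (0.0016). The part of crypt position in these values was not tested. Genes of the distal colon, read as a check of the position along the gut, differed little: the log2 ratios of Hoxa13, Hoxb13, Hoxd12 and Hoxd13 lay between -0.40 and 0.21.

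The 6 members measured on both arrays kept their order, from Car13 down through Car9, Car2, Car7 and Car4 to Car1, under the alternatives that could change it (normexp with quantile normalization, loess and averaged probes). The dim members Car8, Car12 and Car3 have lower limits only and no place in this order; with loess these limits were 2.07, 0.85 and 0.67. Car13 was more than 2-fold higher under all 7 other ways of processing planned for single genes, from 1.34 to 1.66 on the log2 scale. Car9 ranged from 0.89 to 1.09 and was past 2-fold under 2 of the 7, among them scaling to the 75th percentile of each array (1.09). Car2 stayed between 0.35 and 0.51, Car7 between 0.32 and 0.48, and Car4 between 0.09 and 0.25. Car1 stayed below 0, from -0.42 to -0.26, under those 7. Its direction turned only when the arrays were scaled to the E1A control spots, which are meant for RNA spiked into the labelling and whose use is not given in the sources used here. This moved the median of all genes by 0.97 and put Car1 at 0.62; relative to that median of 0.87, Car1 remained lower.

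**Figure D4:**
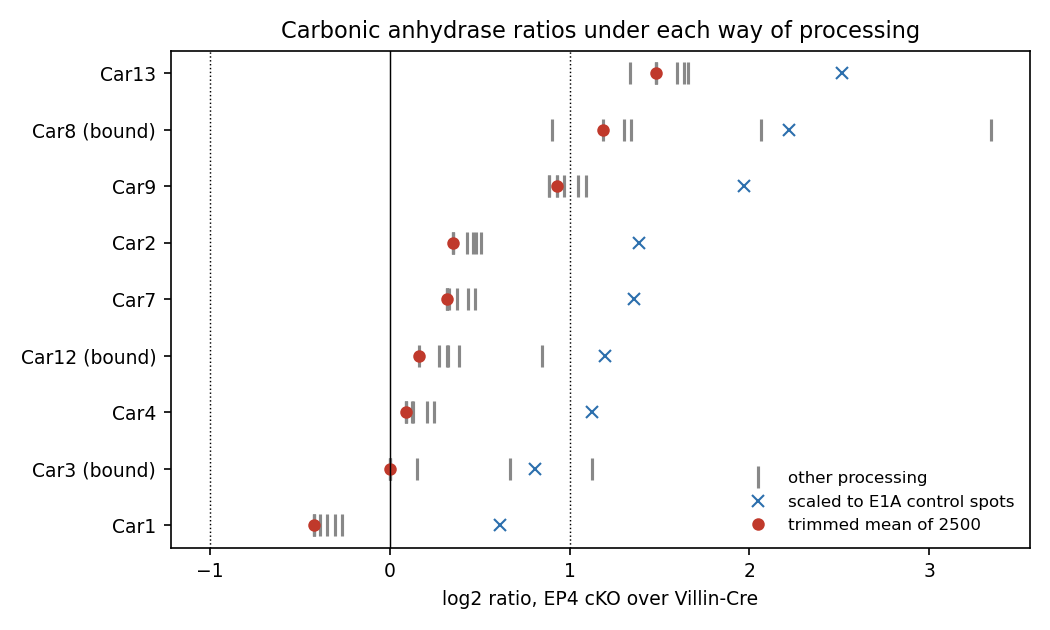
Log2 ratio of EP4 cKO over Villin-Cre of the 9 members with a value under the trimmed mean scaling (red points), other ways of processing (grey bars) and scaling to the E1A control spots (blue crosses); dotted lines mark 2-fold and bounds are lower limits. Car13 lies past 2-fold under each of them and Car1 is the lowest member under each of them, the control spots included, which put it above 0.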

How the data were processed

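Expression was measured with 2 Agilent mouse arrays of 62976 spots, 1 per genotype, and groups were taken from the sample labels. The authors deposited the scanner intensities as processed by Feature Extraction (12.0.3.1 in the file header, 11.5.1.1 in the submitters' processing notes), that is with background subtracted, spatial trends removed and low values replaced. The flags for signal well above background are the software's. The scaling to a trimmed mean of 2500 that the methods describe is not in these intensities and was repeated here, with factors of 3.45 (Villin-Cre) and 2.68 (EP4 cKO). Control spots and outlier spots (147 and 126) were left out, spots of a probe were averaged, and 25683 (45.4%) and 29177 (51.6%) of 56593 probes were well above background. No spot was saturated (0).

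Probes were named by RefSeq accession through genes of GRCm38.p6, which matched 32989 probes (58.3%). A gene was given by its probe with the highest mean log2 signal. The number of arrays limits the precision: no test was made and no array could be left out.

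The members and the lists (transporters, hypoxia-induced genes, cell markers) were chosen with earlier results of these data known. Named beside the members were up to 3 genes per list and direction with the largest changes past 2-fold whose probes moved the same way; others, such as Slc26a3, Slc26a4, Cftr, Hba-a2, Alas2, Cidec and Slc2a1, were chosen after their values were seen. Alternatives were scaling to the 75th percentile or to all spots, normexp (offset 50, on the median signal, as no mean signal was used here) with quantile normalization, loess (span 0.3), no filter on dim probes, probes bright on both arrays, probes of a gene averaged, and thresholds of 1.5-fold and 3-fold. Scaling to 239 E1A control spots was added after seeing the data. Scripts were tested on simulated data. R 4.3.3 (limma 3.58.1) and Python 3.11.15 (matplotlib 3.10.9, statsmodels 0.14.6, pandas 2.3.3, numpy 2.4.6) were used.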

Additional observations from a re-analysis of the deposited data

How the results depend on the processing

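No paired analysis was possible because each genotype had 1 array. The count of members more than 2-fold higher, 2, became 1 after normexp with quantile normalization (4.19% of all genes), 1 when only genes measured on both arrays were counted (4.03%), 0 at a threshold of 3-fold (2.21% of all genes were that much higher) and 7 with scaling to the E1A control spots, under which 39.1% of all genes were more than 2-fold higher; the smaller counts lost Car8, or at 3-fold Car13 as well. It was 3 with the 75th percentile, all spots, no filter on dim probes or a threshold of 1.5-fold, where 6.39%, 5.97%, 5.10% and 9.84% of all genes were higher. The count of members lower was 0 under every alternative run. Car3, Car8 and Car12, however, could count as lower only with no filter on dim probes. The share of all genes lower ran from 2.26% (E1A control spots) to 31.5% (no filter on dim probes). The median of the transporters, -0.13, was 0.91 with the E1A control spots, whose median over all genes was 0.87, and lay between -0.22 and 0.03 under the others. Of the single values of members under all alternatives run, 59 moved by less than the scanner error and 10 by more, 7 of these with the E1A control spots, where Car1 also changed sign (-0.42 to 0.62). Car3, Car12 and Car8 are limited by signal over background on the Villin-Cre array: with each dim probe at its own signal, Car3 would read 1.13 and Car8 3.34 on the log2 scale.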

Other observations

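Of 8 goblet cell genes, 1 was more than 2-fold higher on the EP4 cKO array and 0 were lower (median log2 ratio 0.22): Clca1, a secreted mucus protein, read 295526 on Villin-Cre and 733436 on EP4 cKO, whereas the mucin Muc2 was at -0.06. Enteroendocrine and tuft cell genes, taken as 1 list, had a median of -0.92, with 5 lower and 1 higher among 10 of 12 with a value. The 7 below 0 were all enteroendocrine genes. Beside all counts past 2-fold in this section, 7.87% of all genes were lower and 4.86% higher. The hormone granule gene Chga read 21112 and 7326, the transcription factor Neurod1 479 and 187, and the serotonin synthesis gene Tph1 914 and 371. After normexp with quantile normalization Neurod1 (-0.66) and Tph1 (-0.67) were within 2-fold, and with the E1A control spots Chga was at -0.49. Of the tuft cell genes only Avil, an actin regulator, was measured on both arrays (353 and 907).

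Outside the epithelium, all 5 fibroblast genes with a value were more than 2-fold lower on EP4 cKO, with Dcn at 6006 and 110 (54.5-fold lower). The log2 ratio of Dcn was -5.77, or -4.17 after normexp with quantile normalization. Smooth muscle genes had a median of 0.50 over 6 of 8 with a value and 1 lower, Cnn1 (-2.73, or -1.03 after normexp with quantile normalization). Enteric neurons and glia had 3 of 9 with a value, a median of -0.82 and 1 lower, Uchl1 (1877 and 699). Leukocyte genes had a median of -0.05 over 6 of 8 with a value, with 0 past 2-fold in either direction, although Ptprc was past it with loess, the 75th percentile (1.12) and all spots (1.08). The only endothelial gene with a value, Pecam1, was at -0.18. Skeletal muscle genes had a median of 0.02 over 4 of 6 with a value, with Acta1 higher (1.97) and Mb at least 3.39-fold lower, a limit that normexp with quantile normalization brought to -0.50 on the log2 scale. Of 7 genes of small intestinal enterocytes, Sis, Lct, Apoa4 and Apoa1 were well above background on neither array, and Fabp6, a bile acid carrier of the ileum, was higher (7779 and 25853).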
